A study of Mus musculus with 6 samples.

Results

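The cytosolic ribosomal protein genes encode the protein part of the ribosome that translates messenger RNA in the cytoplasm. They were taken here as every gene whose single symbol in the annotation of this Affymetrix mouse genome array is Rpl, Rps, Rplp or Rpsp followed by a number and at most 1 letter (a, x, y or l). This rule found 45 of the 18193 genes tested, read by 98 of the 34945 probe sets that carry 1 symbol. A probe set is a small group of short probes on the array that together read 1 transcript. Another 110 ribosomal protein probe sets carried several symbols, mostly because a pseudogene or near copy shares their probes, and were outside the rule. They held all probe sets of 28 further ribosomal protein symbols, Rpl3, Rpl5, Rpl10, Rplp1 and Rps12 among them, which are therefore not described gene by gene.

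The arrays measured colon epithelium of 12-week-old mice on a mixed 129SvEv/C57BL/6/DBA/2 background. The knockout group, vil-Cre-Bcl9-/-/Bcl9l-/-, lacked Bcl9 and Bcl9l, which encode beta-catenin co-activators of the Wnt pathway, in cells where the villin promoter drove Cre, that is the intestinal epithelium. It held 3 arrays, numbered 1, 2 and 3, from pools of 3, 2 and 2 mice. The wildtype group held 3 arrays, numbered 4, 5 and 6, from pools of 3 mice each. The labels name Cre for the knockouts alone, so Cre and loss of the co-activators cannot be told apart. The epithelium was released with 3 mM EDTA and 0.05 mM DTT and was not sorted, and 30 ng of RNA was amplified for each array.

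Ribosomal proteins assemble with ribosomal RNA in the nucleolus into a small subunit, which decodes the messenger, and a large subunit, which forms the peptide bond. Their messengers are among the most abundant in a dividing cell, and many begin with a terminal oligopyrimidine tract, a run of C and T bases at the 5′ end through which mTOR and LARP1 control their translation. Wnt signalling is linked to ribosome production through MYC, which drives ribosomal genes in crypt progenitors. The comparison therefore asks whether the messengers of the translation machinery differ when the Wnt co-activators are lost. Arrays read messenger levels and not their translation.

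The tract at the transcript start is the feature that these genes are best known to share, so the 30 bases around the annotated start are shown for members with and without it. RefSeq start regions of build GRCm38.p6 were held for 39 of the 45 members. Each sequence runs from 15 bases before the start to 15 bases from it, on the gene's own strand, and capitals mark the longest run of C and T where it reaches 7 bases.

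Rps6 (chr4:86857353-86857382, minus strand): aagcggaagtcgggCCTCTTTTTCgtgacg
Rps9 (chr7:3704026-3704055, plus strand): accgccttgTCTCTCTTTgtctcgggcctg
Rps24 (chr14:24490663-24490692, plus strand): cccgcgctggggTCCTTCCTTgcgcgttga
Rps27 (chr3:90213634-90213663, minus strand): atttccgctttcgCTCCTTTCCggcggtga
Rpl14 (chr9:120571502-120571531, plus strand): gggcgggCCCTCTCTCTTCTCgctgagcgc
Rpl38 (chr11:114668565-114668594, plus strand): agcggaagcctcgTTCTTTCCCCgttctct
Rplp2 (chr7:141447636-141447665, plus strand): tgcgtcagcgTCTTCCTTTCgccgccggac
Rpl39 (chrX:37085208-37085237, minus strand): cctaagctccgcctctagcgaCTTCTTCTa
Rpl39l (chr16:10170213-10170242, plus strand): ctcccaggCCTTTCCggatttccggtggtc
Rps2 (chr17:24720048-24720077, plus strand): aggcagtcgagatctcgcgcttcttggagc
Rpl3l (chr17:24727811-24727840, plus strand): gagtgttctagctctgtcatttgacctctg

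A run of at least 7 C or T bases lay in this window for 23 of 39 members, or 59.0%, against 5747 of 27025 genes in the table, or 21.3%. A gene was counted, here and for the motifs below, if any of its annotated starts had the feature. Counted by start, the run was present at 23 of 47 member starts, or 48.9%, against 18.6% of all starts. In Rps6, Rplp2 and Rps27 the run spans the start itself, as the tract does, whereas in Rpl39l it ends just before the start and in Rpl39 it begins downstream of it. Among the sequences shown, Rps2 and Rpl3l, the second a copy of Rpl3 known from heart and skeletal muscle, had no such run. Of the members not shown, Rplp0, Rpl11, Rpl22 and Rps4x also had none, with longest runs of 3 to 5 bases. The run length and window were chosen after the sequences were seen, and annotated starts can be off by some bases. The motif CCGGAAG, which ETS factors bind, was present on either strand in the 300 bases of 19 of 39 members, or 48.7%, against 9.93% of all genes. The motif ATGGCGG of YY1 was present in 6 members, or 15.4%, against 4.69%, and TATAAA in 5, or 12.8%, against 15.7%. These matches describe the letters of the window only.

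The arrays were first checked against their labels. Bcl9 was at 7.09, 7.16 and 7.58 in the knockouts against at 7.42, 6.85 and 7.24 for wild type, and Bcl9l was at 8.08, 8.27 and 8.11 and at 7.84, 7.76 and 8.21. The genotypes overlap for both genes, and no source used here says whether these probes lie in the deleted parts, so they do not check the labels. Epithelial markers were read brightly, with a 6-array mean of 11.8 for Vil1, 12.4 for Cdh1 and 13.8 for Krt19, and all 11 listed were measured. Wild type 6 stood apart in markers of several other cell types. Its level was 2.58 over 15 of 18 listed B and plasma cell markers, against -0.66 to -0.23 elsewhere. Over 9 of 12 T cell markers it was 1.25, against -0.39 to -0.048. The same array was highest for macrophage markers, at 0.83 against -0.52 to 0.13, and for fibroblast markers, at 0.58 against -0.45 to -0.0011. Smooth muscle markers were at 0.55 in wild type 6 and 0.37 in wild type 4, against -0.33 to -0.072 elsewhere. For endothelial markers wild type 6 was not the highest, at 0.046 against 0.12 in wild type 5. In such mixed samples, fewer cells of a type and less RNA per cell cannot be told apart. Without wild type 6 the members' median difference, described next, was -0.033, with 40.0% above 0, beside -0.023 and 44.9% over all genes. Without it 0 of 45 members and 3 of 18193 genes were called by limma, against 0 of either with all arrays.

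No ribosomal protein gene passed the test between genotypes. limma called 0 of 45 members higher and 0 lower after Benjamini-Hochberg adjustment over all genes, where 0% of all genes were called in either direction. At an unadjusted p under 0.05 there were 0 members, against 4.71% of all genes (2.69% higher and 2.02% lower). Among the 386 other genes with a mean of 12 or more, the range of 34 of the members, that share was only 0.518%. The smallest limma unadjusted p of a member was 0.0952 (limma adjusted p = 0.953). Differences, in log2 units with positive values higher in the knockouts, ran from -0.30 to 0.60, with 23 members above 0 and 22 below. The median was 0.0032, beside 0.0096 over all genes, and 51.1% of members and 52.2% of all genes lay above 0. When arrays were aligned on their bright genes other than the members, which takes the same amount from every gene, 24.4% of members and 44.5% of all genes lay above 0, with a member median of -0.028.

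**Figure D1:**
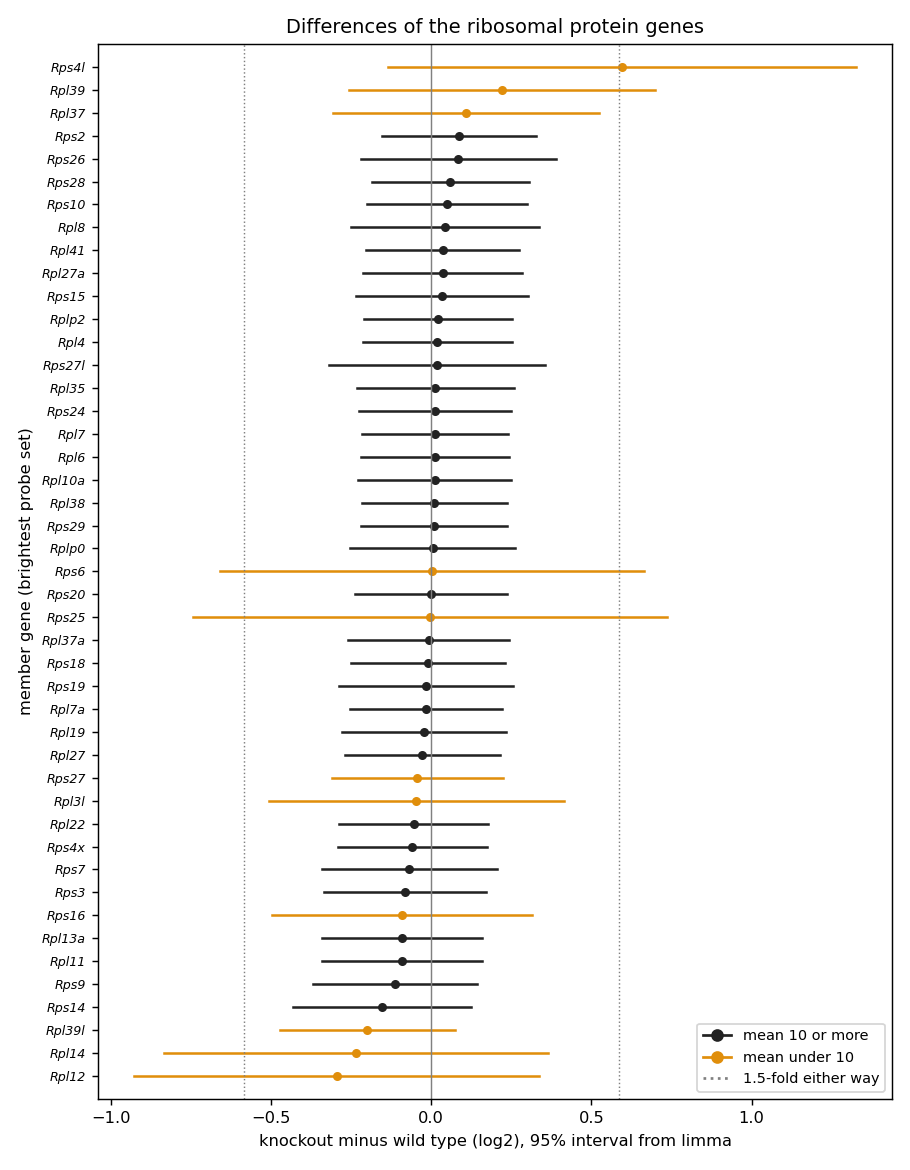
Knockout minus wild type in log2 units (x axis) for each of the 45 genes (y axis), with 95% intervals from limma. Black marks genes whose brightest probe set averaged 10 or more and orange the 11 dimmer ones. All black intervals lie inside the dotted lines at 1.5-fold, and every interval includes 0.

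The intervals show how large a change these arrays leave possible under the variance model of the main limma fit. Among the 34 members whose brightest probe set averaged 10 or more over the 6 arrays, the 95% interval lay inside a 1.5-fold change either way for all 34, and inside a 1.25-fold change for 24, or 70.6%. The count of 24 depends on the variance model, and with an intensity trend and robust estimation it was 33. Among the 386 other genes with a mean of 12 or more, a range that covers all these members, 93.8% lay inside 1.5-fold and 45.1% inside 1.25-fold. Over all genes the shares were 65.6% and 10.3%. The members' median interval extended 0.25 either side of the difference, and that of all genes 0.36. The brightest probe set of each array lay at 14.3 to 14.4, and whether readings this bright are compressed was not tested. The median value of the 34 members lay between 13.2 and 13.4 on each array.

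**Figure D2:**
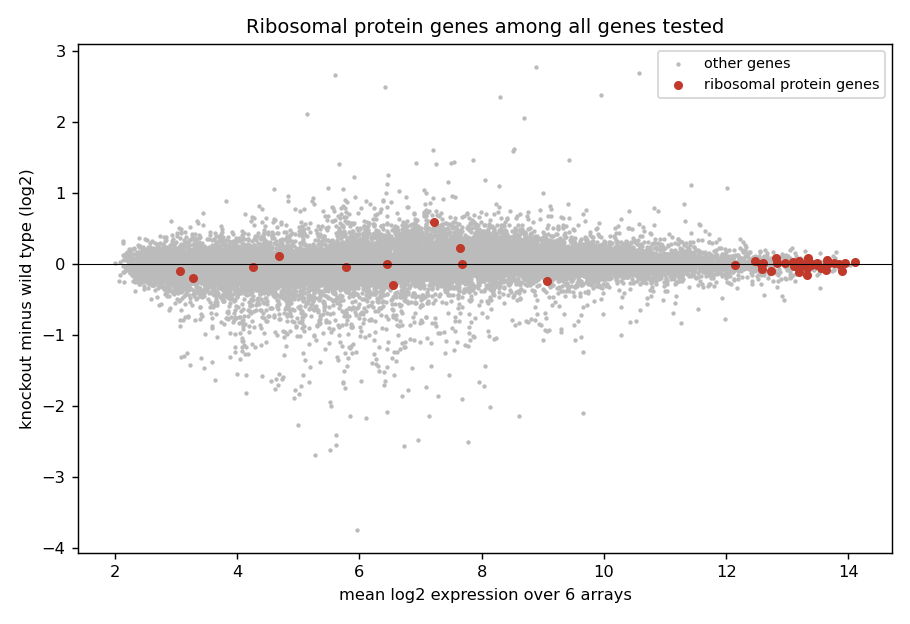
Difference between genotypes in log2 units (y axis) against the mean log2 value over 6 arrays (x axis) for all 18193 genes in grey and the 45 ribosomal protein genes in red. Most members lie at the bright end, between 12.2 and 14.1, with differences from -0.15 to 0.086.

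The 2 genotypes did not overlap at all in 3 of 45 members, or 6.67%, against 10.3% of all genes. In 1 member the knockouts were higher, against 5.49% of all genes, and in 2 lower, against 4.83%. Of the 34 members with a mean of 12 or more, 5.88% did not overlap, against 14.8% of the 386 other genes that bright. Rps2, a small subunit protein near the messenger's entry, was the 1 member entirely higher. It read 12.94, 12.81 and 12.83 in the knockouts against 12.80, 12.76 and 12.77 in wild type. The lowest knockout lay just above the highest wild-type array, and the difference was 0.086 (SE 0.10, limma adjusted p = 0.971), or 0.045 without knockout 1. Rps4x, the X-linked copy of a core small subunit protein, read 13.30, 13.26 and 13.30 in the knockouts against 13.33, 13.39 and 13.31 in wild type. All knockouts lay below all wild-type arrays by a narrow gap, with a difference of -0.058 (SE 0.097, limma adjusted p = 0.977). Rpl39l, described with the other copies below, was also entirely lower.

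Among the standard large subunit proteins, 11 of 20 lay above 0 and 9 below, with a median of 0.010. Rpl4, which lines the exit tunnel of the nascent chain, read 13.38, 13.42 and 13.35 in the knockouts against 13.39, 13.31 and 13.39 in wild type. The groups interleave, and the difference was 0.019 (95% interval -0.21 to 0.25). Rpl11, which with 5S ribosomal RNA binds the p53 regulator MDM2 when ribosome assembly fails, read 12.74, 12.58 and 12.72 in the knockouts against 12.79, 12.81 and 12.71. Its difference was -0.091 (95% interval -0.34 to 0.16), or -0.043 without knockout 2. Rpl22, a large subunit protein that also binds messenger RNA, differed by -0.055 (SE 0.097), with 13.52 ± 0.037 in the knockouts against 13.57 ± 0.028 in wild type (SD, n = 3 per group). Its second bright probe set gave -0.074 (SE 0.10) with the knockouts entirely lower, as in 4.65% of all single-symbol probe sets. Its dim probe set gave 0.031 (SE 0.24). Rpl38, chosen after its values were seen for the smallest range of any member, stayed between 13.67 and 13.71 on all 6 arrays.

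The standard large subunit members among the 5 smallest unadjusted p in each direction were all read by dim probe sets. Rpl39, a small protein of the exit tunnel, read 7.46, 8.21 and 7.59 in the knockouts against 7.46, 7.54 and 7.59 in wild type. Knockout 2 alone stood clearly above the wild-type arrays, and the difference of 0.22 (SE 0.20, limma adjusted p = 0.971) was -0.0055 without it. Rpl37, a zinc-binding protein whose mean of 4.69 lay below the array medians, differed by 0.11 (SE 0.17) and by -0.066 without wild type 6. Rpl12, at the base of the stalk, read 6.97, 6.01 and 6.25 in the knockouts against 6.92, 6.40 and 6.79 in wild type. Knockout 1 was the highest array and the other knockouts the lowest, with a difference of -0.30 (SE 0.27) that was -0.57 without knockout 1 and -0.097 without knockout 2. Rpl14 differed by -0.24 (SE 0.25) and by 0.0195 without wild type 4, the highest array at 9.70.

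The stalk, which recruits elongation factors to the ribosome, was represented by Rplp0 and Rplp2. Rplp0, its scaffold and a common reference gene, read 12.64, 12.51 and 12.56 in the knockouts against 12.65, 12.59 and 12.45 in wild type. The groups overlap almost fully, with a difference of 0.0042 (95% interval -0.25 to 0.26). Rplp2, one of the acidic proteins bound to that scaffold, averaged 13.96 ± 0.031 in the knockouts against 13.94 ± 0.035 in wild type (SD, n = 3 per group). The difference was 0.021 (SE 0.097), and the 6 arrays spanned 0.078.

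Among the standard small subunit proteins, 8 of 19 lay above 0 and 11 below, with a median of -0.0031. Rps14, whose loss in the human 5q- syndrome impairs red cell formation, had the smallest unadjusted p of the bright members. It read 13.34, 13.10 and 13.32 in the knockouts against 13.41, 13.48 and 13.33 in wild type. Knockout 2 was clearly the lowest, while knockout 1 lay just above wild type 6. The difference was -0.15 (SE 0.12, limma adjusted p = 0.962), and -0.075 without knockout 2. The other Rps14 probe set gave -0.14 (SE 0.12). Rps9, which sits beside Rps2 at the messenger's entry, read 13.16, 13.10 and 13.12 in the knockouts against 13.28, 13.32 and 13.12 in wild type. Wild type 6 fell among the knockouts, and the difference of -0.11 (SE 0.11, limma adjusted p = 0.971) was -0.17 without that array.

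Rps26, mutated in some forms of Diamond-Blackfan anaemia, differed by 0.0845 (SE 0.13), with knockout 1 the highest array at 13.56 and knockout 2 the lowest at 13.20. It was -0.0077 without knockout 1. Rps19, the gene most often mutated in that anaemia, read 12.28, 12.03 and 12.12 in the knockouts against 12.22, 12.17 and 12.09 in wild type. The knockouts held both the highest and the lowest array, and the difference was -0.016 (95% interval -0.29 to 0.25). Rps6, the substrate of the S6 kinases below mTOR, was read by a dim probe set at 8.25, 7.25 and 7.55 in the knockouts against 8.01, 7.61 and 7.42 in wild type. The spread within each genotype was far wider than the difference of 0.0032 (95% interval -0.66 to 0.66), so a 1.5-fold change of Rps6 in either direction is not excluded by its interval.

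**Figure D3:**
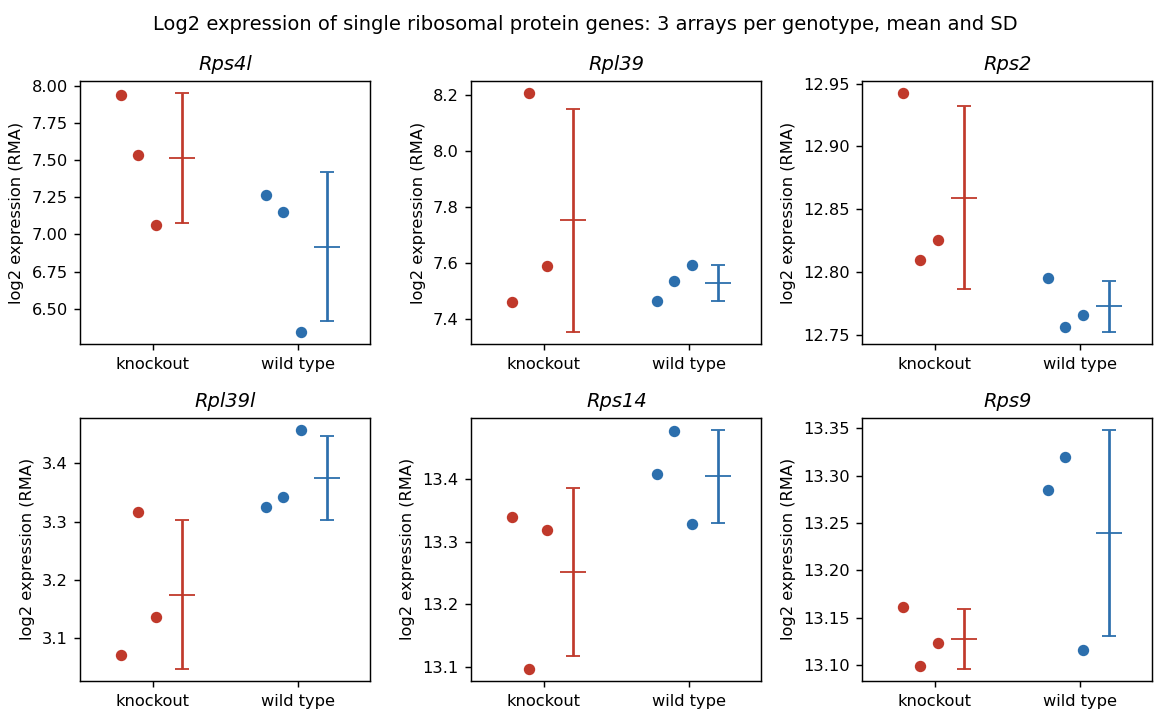
Log2 expression (y axis, a separate scale in each panel) of Rps4l, Rpl39, Rps2, Rpl39l, Rps14 and Rps9 on the 3 knockout arrays (red) and the 3 wild-type arrays (blue), with mean and SD beside the points. Rps2 and Rpl39l are the panels without overlap, and in Rpl39 knockout 2 alone stands high at 8.21.

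The 4 copies of standard ribosomal protein genes differed most in how they were read. Rps4l, a relative of Rps4x that RefSeq lists as a transcribed pseudogene, had the widest difference and the smallest p of all members. It read 7.94, 7.54 and 7.07 in the knockouts against 7.26, 7.15 and 6.34 in wild type. Knockouts 1 and 2 lay above every wild-type array, knockout 3 lay below wild types 4 and 5, and wild type 6 was the lowest. The difference was 0.60 (95% interval -0.14 to 1.33), and it was 0.31 without wild type 6, 0.38 without knockout 1 and 0.82 without knockout 3. The interval of Rps4l was the 1 member interval that reached beyond a 2-fold change.

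Rpl39l, the copy of Rpl39 used in male germ cells, read 3.07, 3.32 and 3.14 in the knockouts against 3.33, 3.34 and 3.46 in wild type. Knockout 2 came closest to the wild-type arrays, and the difference was -0.20 (SE 0.12, limma adjusted p = 0.953). Rpl3l averaged 4.23 ± 0.27 in the knockouts against 4.28 ± 0.27 in wild type (SD, n = 3 per group). Both lay below the array medians of 5.44 to 5.58, and no detection call was used, so neither is shown to be above background. Rps27l, a p53-induced copy of Rps27, read 12.73, 12.34 and 12.76 in the knockouts against 12.60, 12.60 and 12.58 in wild type. The wild-type arrays were nearly equal while knockout 2 lay below and the other knockouts above them, with a difference of 0.019 (SE 0.14) that was 0.16 without knockout 2. Rps27, read by a dim probe set, differed by -0.044 (SE 0.11).

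The other members, named here for completeness after their values were seen, lay between -0.090 and 0.059. Of the large subunit, Rpl27, Rpl19, Rpl7a and Rpl37a lay below 0, at -0.028 to -0.0084, and Rpl10a, Rpl6, Rpl7, Rpl35, Rpl27a, Rpl41 and Rpl8 above it, at 0.011 to 0.043. Rpl7 spanned only 0.056 over the 6 arrays, from 12.94 to 12.99, whereas Rpl8, a core protein near the catalytic centre, spanned 0.31, with knockout 1 the highest array at 12.63 and wild type 6 the lowest at 12.31. Rps16 was the dimmest member, with a mean of 3.07 below the array medians, and is not shown to be above background, nor is Rpl37. Of the small subunit, Rps16, Rps3, Rps7, Rps18, Rps25 and Rps20 lay below 0, at -0.090 to -0.0005, and Rps29, Rps15 and Rps28 above it, at 0.00885 to 0.059. Rps3, a protein of the messenger's entry that also acts in DNA repair, read 13.60, 13.56 and 13.60 in the knockouts against 13.67, 13.77 and 13.56 for wild type. Wild types 4 and 5 stood above all knockouts and wild type 6 among them, with a difference of -0.082 (SE 0.11). Rps25, known for its part in internal ribosome entry, was read by a dim probe set and spanned 1.23, with knockout 3 the highest at 6.98 and knockout 2 the lowest at 5.75. Its difference was -0.0031 (95% interval -0.74 to 0.74), so its data say little in either direction.

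The 98 probe sets of the members fell into 68 with a mean of 10 or more and 30 below it. For 12 genes there were probe sets of both kinds, so a dim reading of such a gene does not give its messenger level. Of the 11 members read only by dim probe sets, 8 also had a probe set of mean 10 or more that carried several symbols and was outside the rule. The exceptions were Rpl39l, Rpl3l and Rps4l, for which no bright probe set was found. The bright probe sets had a median difference of 0.0093 and ran from -0.28 to 0.086, and the dim ones had a median of -0.015 and ran from -0.67 to 0.60. None of the 98 passed over all single-symbol probe sets, where 0% were called, and 0 had an unadjusted p under 0.05 by limma, against 4.60% (2.71% higher and 1.88% lower). Of the 98, 51.0% lay above 0, against 52.5%. The genotypes did not overlap in 7, against 10.2% of probe sets, with the knockouts higher in 1 (5.54% of all) and lower in 6 (4.65% of all). The 110 shared probe sets, which cannot be given to 1 gene, had a median of 0.0075 with 62 above 0, 0 called and 2 at an unadjusted p under 0.05, both lower. That is 1.82% of the 110, against 1867 (4.15%) of the 45037 non-control probe sets of the same limma fit, 834 of them lower.

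Of the 18 genes with several bright probe sets, 12 had all of those differences on 1 side of 0, 6 above and 6 below. Rpl13a, chosen after its values were seen, was the gene among them whose bright probe sets spanned most. Its product also takes part in interferon-induced control of translation. Its 4 probe sets gave -0.090, -0.12, -0.19 and -0.28, with the smallest difference in the brightest probe set and the largest in the dimmest. In each of the 4 the lowest array was knockout 2. The smallest limma unadjusted p of these was 0.162. Probe sets ending in _x_at or _s_at, whose probes can also bind related sequences, made up 43.9% of member probe sets and 11.1% of all single-symbol probe sets.

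Rps9, Rps10 and Rps24 had the widest span of differences between their own probe sets. In Rps10, a protein of the small subunit's head, the 5 bright probe sets gave -0.016 to 0.050 while the dim one gave -0.50 (95% interval -1.03 to 0.040, limma unadjusted p = 0.0646), the smallest p of all member probe sets. In Rps9 the bright probe sets gave -0.11 and 0.010 and the dim one -0.67 (95% interval -1.52 to 0.18). In Rps24, a gene with alternatively spliced 3′ exons, the bright probe sets gave -0.051 to 0.012 and the dim ones 0.21 and -0.27. The bright and the dim readings of these genes thus differ in size, and none of the intervals excludes 0.

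**Figure D4:**
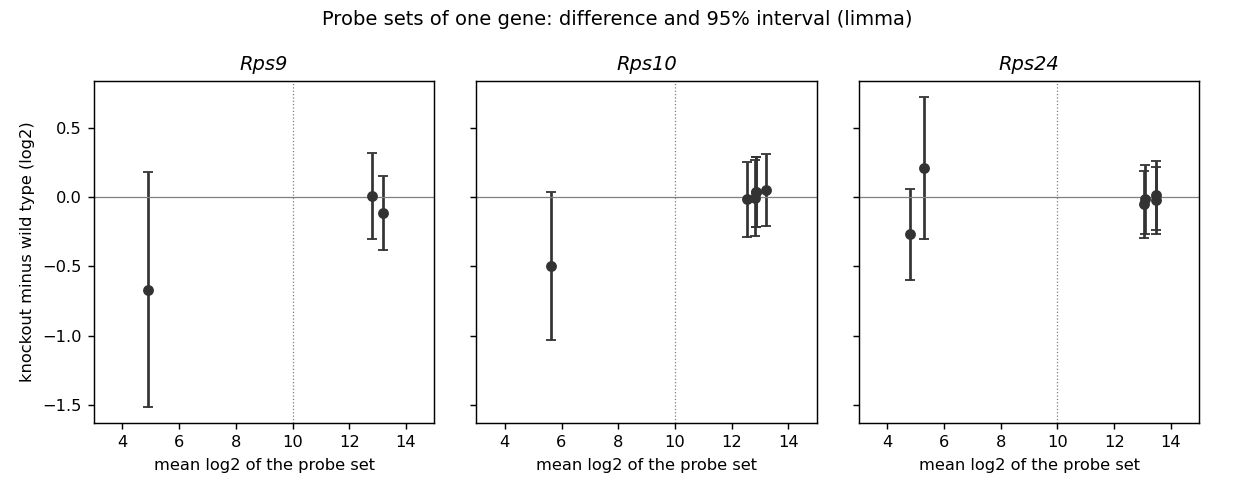
Difference between genotypes in log2 units (y axis) with 95% intervals from limma, against the mean log2 value of each probe set (x axis), for Rps9, Rps10 and Rps24. Probe sets right of the dotted line at 10 lie close to 0, and those left of it range from -0.67 to 0.21 with wider intervals.

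The members' common level differed between arrays of 1 genotype. Each array's level is the median, over members, of a gene's value minus its own mean of the 6 arrays. For the 34 bright members it was 0.065, -0.056 and -0.0085 in knockouts 1, 2 and 3 and 0.028, 0.013 and -0.031 in wild types 4, 5 and 6. Knockout 1 was thus the highest and knockout 2 the lowest array, with all wild-type arrays between them. Knockout 1 was the highest array for 18 of the 34 members and knockout 2 the lowest for 17, while wild type 6 was the lowest for 10. Over all genes the levels of knockout 1, knockout 2 and wild type 6 were 0.018, -0.024 and -0.072. Over all genes with a mean of 10 or more they were 0.0065, -0.00032 and -0.042, so wild type 6 was low beyond the members. The 34 genes' median range over the 6 arrays was 0.17, beside 0.25 for the other genes with a mean of 12 or more.

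**Figure D5:**
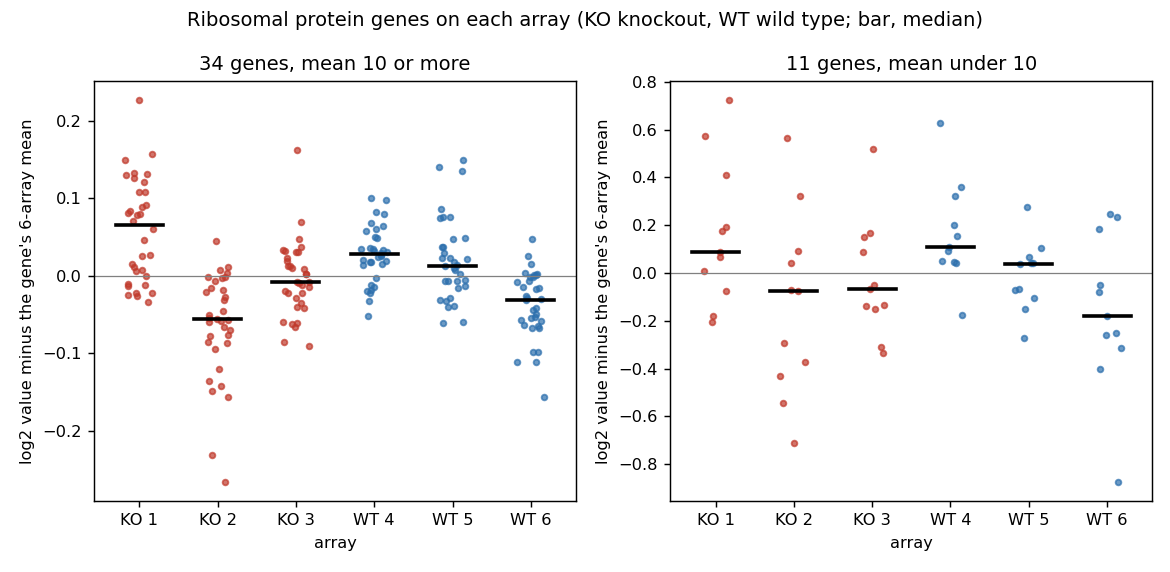
Log2 value of each member minus its 6-array mean (y axis) on each array (x axis, knockouts red and wild type blue), for 34 bright genes on the left and 11 dim genes on the right, with the median as a bar. Knockout 1 and knockout 2 lie at opposite ends on the left, with medians of 0.065 and -0.056, and the scale on the right is wider.

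The rest of the translation machinery was also without called genes. Of 10 listed ribosome genes whose symbols fall outside the rule, 5 were measured by a probe set of their own and 0 passed. Rpsa, a small subunit protein, lay at 13.58 to 13.64 on all arrays, and Rps3a1 read 13.36, 13.41 and 13.40 in the knockouts against 13.46, 13.47 and 13.47. The groups do not overlap for either gene, Rpsa being higher by 0.037 (SE 0.096) and Rps3a1 lower, with a difference of -0.075 (SE 0.096). They were 2 of the 5 genes, beside 10.3% of all genes and 14.8% of the non-member genes with a mean of 12 or more. Rpl22l1, the copy of Rpl22 that is known to rise when Rpl22 is lost, differed by -0.18 (SE 0.15). Fau, whose product is cut to release a small subunit protein, differed by 0.016 (SE 0.12).

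Ribosome biogenesis factors, which process ribosomal RNA and assemble the subunits, had 41 of 73 measured genes above 0 (56.2%) and a median of 0.027. By limma 0 of the 73 had an unadjusted p under 0.05, against 4.71% of all genes. Over all genes 52.2% lay above 0, with a median of 0.0096. The assembly helicase Ddx27 differed by -0.28 (SE 0.12), Noc2l by -0.20 (SE 0.11), Ltv1, an export factor of the small subunit, by 0.20 (SE 0.11) and Ddx56 by 0.30 (SE 0.17). RNA polymerase I and nucleolar genes had 11 of 20 above 0 and a median of 0.027. By limma, 1 of the 20, or 5%, had an unadjusted p under 0.05, against 4.71% of all genes. Polr1b, the second largest subunit of the polymerase that makes ribosomal RNA, read 0.53 higher (SE 0.17, limma unadjusted p = 0.0159, adjusted p = 0.953), and Npm1, an abundant nucleolar chaperone, differed by -0.15 (SE 0.11). Mitochondrial ribosomal proteins, which serve a separate ribosome, had 44 of 76 above 0 and a median of 0.042. Their array level was 0.21 in knockout 1 and -0.17 in knockout 2, with wild types 5 and 6 at 0.11 and -0.21.

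Translation initiation factors had 24 of 37 above 0 (64.9%) and a median of 0.043. By limma 0 of the 37 had an unadjusted p under 0.05, against 4.71% of all genes. The share of all genes above 0 was 52.2%, with a median of 0.0096. Eif5b, which joins the subunits, differed by 0.23 (SE 0.10), and Eif3e, a subunit of the factor that binds the small subunit, by -0.21 (SE 0.10). The list of elongation factors and related genes had 4 of 10 above 0 and a median of -0.058. Eif5a lay at -0.15 (SE 0.12) and Eef1b2 at -0.15 (SE 0.11). Eef1e1, which is not itself an elongation factor, had the widest difference of the list, at 0.21 (SE 0.19). Genes of mTOR signalling and oligopyrimidine messenger control had 13 of 22 above 0 and a median of 0.022. By limma, 1 of the 22, or 4.55%, had an unadjusted p under 0.05, against 4.71% of all genes. Mtor itself lay at 0.30 (SE 0.14) and Rragc, a GTPase that senses amino acids for it, at 0.34 (SE 0.11, limma unadjusted p = 0.0141). Below 0, Sesn2, a stress-induced inhibitor of mTOR, lay at -0.17 (SE 0.11) with the knockouts entirely lower, as in 4.83% of all genes. Its relative Sesn1, the widest difference of the list, lay at -1.21 (SE 0.76). Of 15 measured p53 targets, 6 lay above 0, and Myc differed by -0.13 (SE 0.18). None of these genes passed over all genes (smallest limma adjusted p = 0.953 in these lists).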

How the data were processed

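The deposited values are log2 expression. The authors used RMA (no version listed), per the submitters' processing notes. That the scale is log2 follows from the range of the values. Array medians lay between 5.44 and 5.58. Arrays have no depth, and their number, 3 per group, limits the precision. Scanner files and detection calls were not used here. Each array is a separate pool of mice, so the spread in the tests is that between pools. limma draws the variance of each gene towards a value shared by all genes. For members that varied little between arrays, the SE, interval and p-value therefore rest mostly on that shared value. Rpl38, with an SD of 0.017 in the knockouts and 0.015 in wild type, had an SE of 0.096. Of 45101 probe sets, 34945 carried 1 symbol, 932 several and 9160 none, and 64 were controls. By gene number 34741 matched RefSeq (GRCm38.p6). Each gene took its brightest probe set by 6-array mean, with no filter on low values. The groups were compared with limma 3.58.1 (R 4.3.3), two-sided and without covariates, using lmFit and eBayes. A call needed a Benjamini-Hochberg adjusted p under 0.05, adjusted across all genes tested. No set test was run. Members and lists were chosen with earlier results of these data known. Named members were those with the 5 smallest p in each direction, the 3 with the widest probe set span, and members fixed for their roles; others are marked. On simulated data for this comparison (200 of 18193 genes changed, 10 simulations) 55.9% of 2-fold and 89.4% of 4-fold changes were recovered, with 5.16% of calls false.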

Additional observations from a re-analysis of the deposited data

How the results depend on the processing

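Under the 18 other settings tried, 17 of them planned, 0 members were called. The settings tested between 4548 and 35055 genes or probe sets. Among all features tested, 3 of 18193 genes were called without wild type 6, 3 of 18193 with the B and plasma cell covariate and 0 in the others. At an unadjusted p under 0.05 by limma there was 1 of 45 members without knockout 1 and 1 without knockout 3. The share of all genes at that threshold was not counted in these fits, so nothing is read from either. The members' median stayed within 0.054 of the main fit, the spread of their level between replicate arrays. Their share above 0 ran from 24.4 to 62.2%, beside 51.1% in the main fit. The spread set beside that share, 29.1 percentage points, is for the percent of members above their own mean on an array. It is a wide and unlike measure, so it cannot show that the share is stable. The smallest adjusted p of a member was 0.787 to 1. Leaving out single arrays gave medians of -0.033 to 0.020 and shares of 31.1 to 62.2%. With an intensity trend and robust estimation the median interval of the 34 bright members narrowed to 0.139 either side. Of these members, 33 lay inside 1.25-fold. In that limma fit 0 of 45 members had an unadjusted p under 0.05, against 843 of 18193 genes. Joining the 110 shared probe sets, chosen after seeing the data, gave a median of 0.0064. With _x_at and _s_at probe sets left out, 40 members remained, with a median of -0.0097. With the B and plasma cell level as a covariate the median was -0.040, 40.0% lay above 0 and the smallest adjusted p was 0.787. No paired analysis was possible because the groups share no replicate number.

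Of the 23 named members followed through the settings, these changed sign, Rpl14, Rpl39 and Rpl37 among the wider differences. Cyclic loess turned Rps6 (-0.0688). Aligning arrays on bright genes, which moves every gene by the same amount and left 24.4% of the 45 members above 0, turned, among the named members, Rps24 (-0.0193), Rplp0 (-0.0270), Rplp2 (-0.00995), Rps6 (-0.0280), Rpl4 (-0.0119) and Rps27l (-0.0126). Averaging the probe sets of each gene turned Rps10 (-0.0656) and Rps24 (-0.0226). Array weights turned Rplp0 (-0.0310) and Rps6 (-0.13), and the B and plasma cell covariate turned Rpl37 (-0.10), Rplp0 (-0.0634), Rps6 (-0.15) and Rpl3l (0.10). Without single arrays the ranges were -0.0077 to 0.17 for Rps26, -0.0507 to 0.0465 for Rplp0, -0.28 to 0.22 for Rps6, -0.0579 to 0.16 for Rps27l, -0.0055 to 0.37 for Rpl39, -0.0858 to 0.0404 for Rps19, -0.0199 to 0.0447 for Rps24, -0.19 to 0.11 for Rpl3l, -0.45 to 0.0195 for Rpl14, -0.0065 to 0.0352 for Rpl4 and -0.0658 to 0.23 for Rpl37. The cause was not tested.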
